A study of Mus musculus with 12 samples.

Results

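The heterogeneous nuclear ribonucleoproteins (hnRNPs) and the serine/arginine-rich (SR) proteins are the 2 large families of RNA-binding proteins that choose which exons of a pre-mRNA are kept. SR proteins bind exonic enhancers through RNA recognition motifs, and their arginine/serine-rich tails, phosphorylated by SRPK and CLK kinases, bring in the spliceosome. hnRNPs coat nascent transcripts and often act as silencers, and many also control export, stability and translation of mRNA. Both families regulate their own transcripts through exons that trigger decay, and both act on the alternatively spliced transcripts of sarcomere and calcium-handling genes in muscle.

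In the extensor digitorum longus (EDL), a fast-twitch hindlimb muscle, 32 of the 17752 listed genes had a symbol beginning Hnrnp or Srsf. Of these, 30 were retained: 20 hnRNP genes and 10 SR genes. The rule left out 1 processed pseudogene, Hnrnpa1l2-ps, and 1 gene below a mean of 0.5 FPKM (fragments per kilobase of transcript, scaled to the depth of the library), Srsf12, whose mean was 0.0113 FPKM. All 30 were among the 12744 genes tested.

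The EDL came from male mice in 4 groups of 3 libraries. The genotype is labelled Ctrl (WT) or Nrip1KO (strNrip1-/-), and the mice were sedentary or trained by voluntary wheel running begun at 8 weeks of age. In strNrip1-/- mice a muscle creatine kinase promoter drives Cre, which acts in heart and skeletal muscle and not in the other cells of a muscle, on floxed alleles of Nrip1, the gene of the corepressor RIP140. WT animals were floxed littermates without Cre. The labels number the libraries of a group but do not say which animal each came from, so p-values measure the spread between these libraries.

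Nrip1 itself went against the genotype labels. It read 3.60, 2.55 and 3.84 FPKM in the libraries labelled WT sedentary and 15.5, 16.3 and 14.9 FPKM in those labelled strNrip1-/- sedentary. In trained muscle it read 2.53, 4.76 and 3.56 FPKM in the libraries labelled WT and 20.7, 14.9 and 16.6 FPKM in those labelled strNrip1-/-. A gene-level value does not separate the floxed coding exon from the exons that remain, so it does not check the deletion, and every direction below is by label. The tissue was fast muscle by its markers: 10 of 10 fast-fiber markers were detected in every library, with a summed level of 98720 to 155309 FPKM, against 57.9 to 563 FPKM for 7 slow-fiber markers. On a transcript of 2000 nt effective length 1 FPKM corresponded to 39.8 to 58.0 fragments, and 3 fragments to 0.0518 to 0.0754 FPKM, so all 30 genes were measured far above the detection floor.

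The 3 coding stretches that follow are printed 5′ to 3′ on the sense strand with G and C in capitals. They differ in base composition, but are short parts of their genes. A trend described with the trained libraries uses the G + C content of whole transcripts instead. That was 55.4% for Hnrnpa0, 42.0% for Srsf10 and 43.0% for Hnrnph1. Each stretch is the first 120 bases of the longest coding segment of the gene in GENCODE M21 on GRCm38 (mm10). Hnrnpa0, the gene with the largest difference, lies on the minus strand and is annotated with 1 transcript; its stretch, chr13:58128194-58128313, held 76 G or C (63.3%). The stretch of Srsf10, chr4:135863729-135863848 on the plus strand, held 49 (40.8%), and that of Hnrnph1, chr11:50382537-50382656 on the plus strand, held 58 (48.3%).
Hnrnpa0: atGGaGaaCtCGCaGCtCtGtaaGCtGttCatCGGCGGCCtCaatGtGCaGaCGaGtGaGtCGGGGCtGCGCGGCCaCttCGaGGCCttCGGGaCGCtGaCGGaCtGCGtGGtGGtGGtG
Srsf10: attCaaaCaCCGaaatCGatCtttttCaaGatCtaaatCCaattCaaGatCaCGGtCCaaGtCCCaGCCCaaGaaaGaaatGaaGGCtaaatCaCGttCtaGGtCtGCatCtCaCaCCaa
Hnrnph1: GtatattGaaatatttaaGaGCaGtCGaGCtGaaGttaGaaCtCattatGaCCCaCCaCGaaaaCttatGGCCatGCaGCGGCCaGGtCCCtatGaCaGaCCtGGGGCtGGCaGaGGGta

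The 30 genes spanned a 43.4-fold range of mean FPKM over the 12 libraries. Hnrnpa2b1, a nuclear and trafficking hnRNP, was the most abundant at 367 FPKM and made up 28.0% of the summed hnRNP level. In the sedentary libraries it read 358, 367 and 356 FPKM under the WT label and 383, 395 and 371 FPKM under the strNrip1-/- label. In the trained libraries it read 376, 367 and 352 FPKM under the WT label and 375, 348 and 353 FPKM under the strNrip1-/- label. The sedentary groups did not overlap and the trained groups did, and neither difference passed the test (limma log2 fold change 0.09, adjusted p = 0.524, and -0.02, adjusted p = 0.862).

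Hnrnpm, which binds GU-rich RNA, had a mean of 119 FPKM and lay between 113 and 133 FPKM in all 12 libraries. Its WT sedentary libraries read 115, 122 and 123 FPKM and its strNrip1-/- sedentary libraries 133, 113 and 118 FPKM, and the trained libraries read 119, 114 and 114 FPKM (WT) and 114, 118 and 118 FPKM (strNrip1-/-). Hnrnpab, a CArG-box-binding hnRNP, had a mean of 98.0 FPKM, with 104, 104 and 99.0 FPKM in WT sedentary and 93.7, 103 and 89.0 FPKM in strNrip1-/- sedentary libraries. Its trained libraries read 95.2, 97.5 and 97.0 FPKM (WT) and 96.7, 93.8 and 103 FPKM (strNrip1-/-). The groups of both genes overlapped in the trained muscle.

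Among SR genes Srsf5 dominated, with 154 FPKM and 39.2% of the summed SR level. It read 147, 162 and 166 FPKM in WT sedentary and 170, 155 and 144 FPKM in strNrip1-/- sedentary libraries, and 144, 147 and 131 FPKM in WT trained and 147, 178 and 162 FPKM in strNrip1-/- trained libraries. Srsf2, the nuclear-speckle protein SC35, followed at 59.9 FPKM, and Srsf3, the smallest SR protein and an export adaptor, at 32.2 FPKM. Srsf3 read 31.9, 30.1 and 28.7 FPKM in WT sedentary, 29.8, 39.5 and 26.8 FPKM in strNrip1-/- sedentary, 37.4, 35.5 and 31.3 FPKM in WT trained and 34.8, 29.3 and 31.5 FPKM in strNrip1-/- trained libraries. Its groups overlapped in both genotype comparisons.

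The other hnRNPs fell into a broad order by mean level. The poly(C)-binding Hnrnpk (89.0 FPKM), the splicing silencer Hnrnpa1 (83.1 FPKM) and the G-run-binding Hnrnph1 (81.5 FPKM) came next. Hnrnpl, which binds CA repeats, stood at 61.5 FPKM, Hnrnpdl at 58.3 FPKM, Hnrnpa3 at 52.6 FPKM, the uridine-tract-binding Hnrnpc at 50.6 FPKM and Hnrnpf, another G-run binder, at 49.0 FPKM. Hnrnpd, the AU-rich-element factor AUF1, stood at 36.8 FPKM. Hnrnpul1 (25.4 FPKM), Hnrnph3 (24.7 FPKM), Hnrnph2 (24.4 FPKM), the nuclear scaffold protein gene Hnrnpu (24.2 FPKM), Hnrnpul2 (23.7 FPKM) and Hnrnpa0 (21.8 FPKM) lay close together. Hnrnpr (13.3 FPKM) and Hnrnpll (8.45 FPKM), the paralog of Hnrnpl, were the lowest. The remaining SR genes were Srsf11 (28.2 FPKM), Srsf6 (26.8 FPKM), Srsf7 (26.6 FPKM), Srsf1 (23.1 FPKM), Srsf4 (19.2 FPKM), Srsf10 (12.6 FPKM) and Srsf9 (10.7 FPKM). FPKM is per length of transcript, so these are comparisons of level between genes.

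Levels varied little between libraries. The coefficient of variation over the 12 libraries ranged from 3.84% (Hnrnpa2b1) to 17.6% (Hnrnpa0), with a median of 6.90% against 15.6% over all genes tested. The genes tested went down to a mean of 0.5 FPKM, while the 30 genes had a median mean of 30.2 FPKM. No comparison with genes of like level was made. The highest library was less than 1.5 times the lowest for 26 of the 30 genes. The summed hnRNP level lay between 1289 and 1334 FPKM in all 12 libraries, a coefficient of variation of 1.24%, and the summed SR level between 361 and 420 FPKM, a coefficient of variation of 4.42%. By group the SR sum was 396 ± 13.0 FPKM (SD, n = 3) in WT sedentary, 391 ± 20.4 in strNrip1-/- sedentary, 379 ± 16.9 in WT trained and 409 ± 10.3 FPKM in strNrip1-/- trained libraries.

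**Figure D1:**
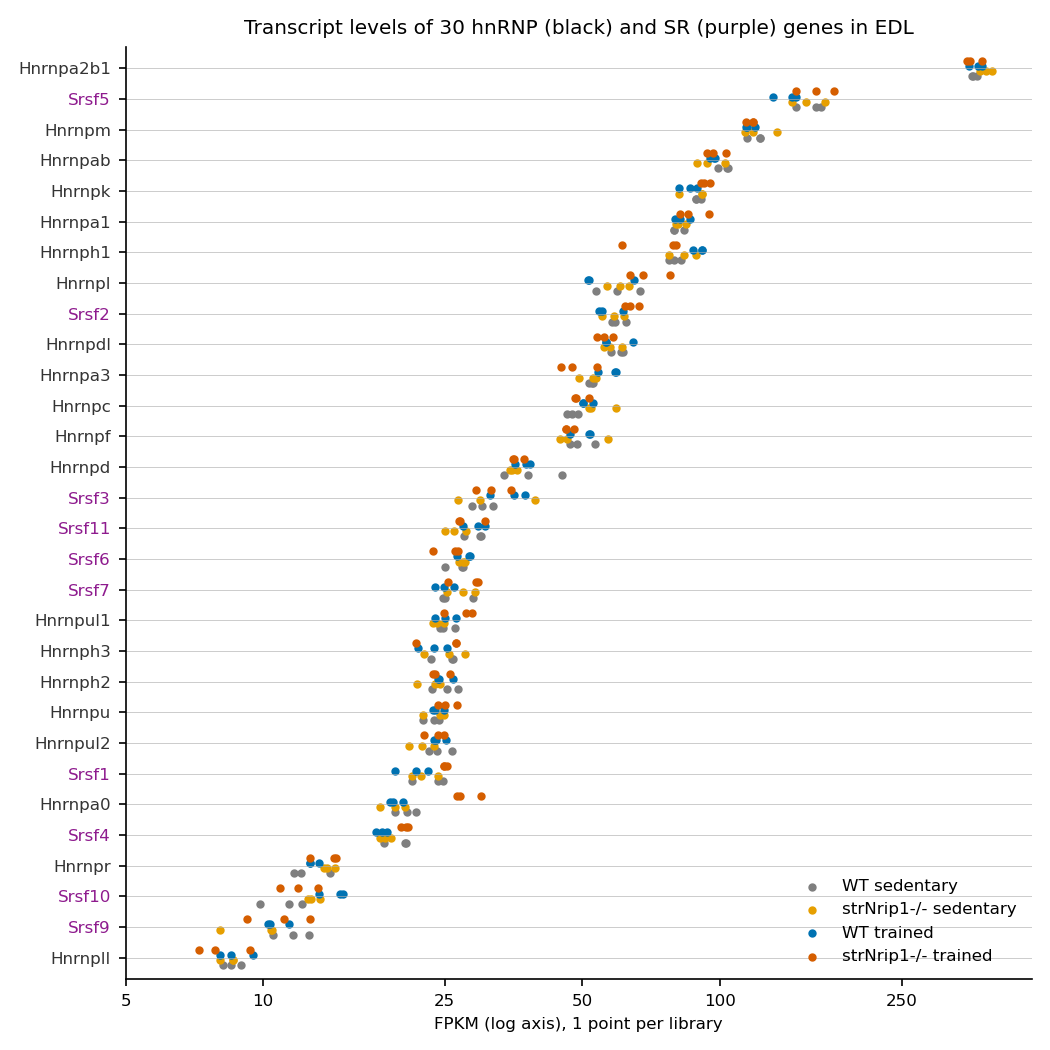
FPKM (log axis) of each hnRNP gene (black name) and SR gene (purple name) in the 12 libraries, 1 point a library, coloured by labelled group and ordered by mean. Hnrnpa2b1 lies above 348 FPKM throughout, and the strNrip1-/- trained points of Hnrnpa0, 26.5 to 30.1 FPKM, stand to the right of its other points.

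The sedentary comparison asks whether loss of Nrip1 alone goes with a change in splicing factor transcripts. No hnRNP or SR gene passed the test between the libraries labelled strNrip1-/- and WT (0 of 30, limma on log2(FPKM + 0.5), Benjamini-Hochberg adjusted p under 0.05 and a change above 1.2-fold), where 3.51% of all genes did. At an unadjusted p under 0.05 there was 1 of 30 (3.33%), against 16.3% of all genes. The 95% interval of the difference lay inside 1.2-fold either way for 20 of the 30 genes and inside 1.5-fold for all 30. The median absolute log2 fold change was 0.06 for the 30 genes and 0.14 for all genes tested, with median SEs of 0.08 and 0.14. The median log2 fold change was -0.02 for hnRNP and -0.03 for SR genes. Scaled to the same sum outside the mitochondrial genome these were 0.06 and 0.05, beside 0.07 for all genes tested.

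Hnrnpc, the packaging hnRNP, had the smallest p of the sedentary comparison. It read 46.4, 47.5 and 49.0 FPKM in the libraries labelled WT and 51.8, 52.3 and 59.3 FPKM in those labelled strNrip1-/-. The groups did not overlap, but the log2 fold change of 0.19 (SE 0.07) did not pass the test (limma adjusted p = 0.175). Srsf10, an SR protein whose dephosphorylation turns it into a splicing repressor, read 11.4, 9.86 and 12.2 FPKM under WT and 12.6, 13.3 and 12.7 FPKM under strNrip1-/- (log2 fold change 0.21, SE 0.10, limma adjusted p = 0.320). Srsf9 read 11.6, 12.6 and 10.5 FPKM under WT and 10.4, 10.4 and 8.07 FPKM under strNrip1-/- (log2 fold change -0.26, SE 0.13, limma adjusted p = 0.361). The Srsf10 groups and the Srsf9 groups did not overlap either, by small margins, and both values leaned on 1 library. Srsf10 stood at 0.12 without WT sedentary replicate 2, and Srsf9 at -0.14 without strNrip1-/- sedentary replicate 3. Hnrnpc, Srsf10 and Srsf9 were picked for a small p, and the share of all genes whose groups did not overlap was not counted.

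In trained muscle 1 member of the families was called between the genotype labels. Hnrnpa0, an AU-rich-element-binding hnRNP that the stress kinase MAPKAPK2 phosphorylates, was higher in the libraries labelled strNrip1-/- than in those labelled WT by a log2 fold change of 0.50 (95% interval 0.33 to 0.67, SE 0.08), which is 1.42-fold. It read 18.9, 19.3 and 20.3 FPKM under WT trained and 26.5, 30.1 and 27.0 FPKM under strNrip1-/- trained. The sedentary libraries read 21.6, 20.7 and 19.4 FPKM (WT) and 20.5, 19.5 and 18.0 FPKM (strNrip1-/-), so each strNrip1-/- trained library lay above all 9 others. The test gave an adjusted p of 0.00395 (limma), and 1 of 30 genes was called (3.33%) against 5.98% of all genes. The call held in all 23 alternative analyses, with log2 fold changes of 0.44 to 0.57 and limma adjusted p of 0.00201 to 0.0224. No exon of another annotated gene overlapped those of Hnrnpa0. The fit that gave the depth took a mean fragment length off each transcript. That length was 290 to 300 nt in the strNrip1-/- trained libraries and 310 to 340 nt in the 9 others. The part of this library difference in the Hnrnpa0 result was not tested.

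A trend with base composition ran through the trained comparison. Over all genes tested, the median log2 fold change went from -0.15 in the 1274 genes of lowest G + C content (at most 42.6%) to 0.14 in the 1274 of highest (at least 58.2%). In the sedentary comparison the same medians were -0.01 and -0.03. Hnrnpa0 had the highest transcript G + C content of the 30 genes (55.4%), and Hnrnpu the lowest (40.9%), and the coding stretches printed above show the same contrast between Hnrnpa0 and Srsf10. Across the 30 genes, which share the same libraries and are not replicates, G + C content and the trained log2 fold change had a Pearson correlation of 0.45, and 0.28 without Hnrnpa0. With the sedentary log2 fold change the correlation had the opposite sign, at -0.46, and -0.45 without Hnrnpa0. With the G + C and length trends over all genes taken out of the values, the log2 fold change of Hnrnpa0 was 0.44 (limma adjusted p = 0.00578). Across the 30 genes the correlation with G + C content was then 0.18 in trained and -0.51 in sedentary muscle. The correction thus left a correlation in these genes, and the part of base composition in the Hnrnpa0 difference was not tested further. The correction was chosen after the data were seen.

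**Figure D2:**
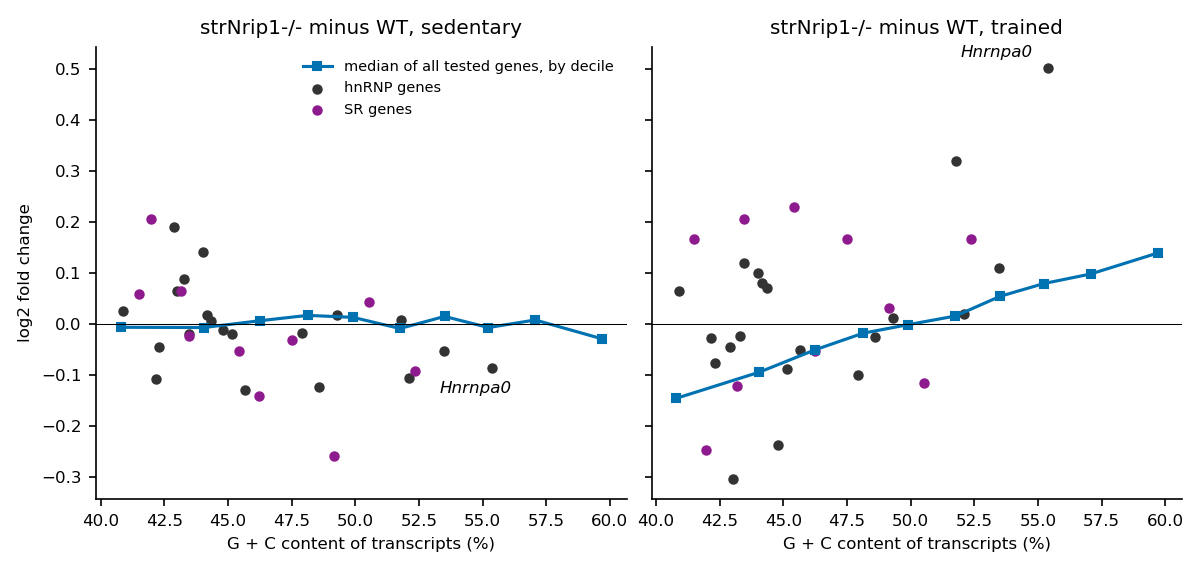
Log2 fold change (strNrip1-/- minus WT, by label) of each hnRNP and SR gene against the G + C content of its transcripts (%), in sedentary and trained muscle, with squares for the median of all tested genes in 10 bins of G + C content. The squares are flat in sedentary muscle and climb from -0.15 to 0.14 in trained muscle, where Hnrnpa0 lies above them at 0.50.

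Markers of other cells were set beside this result. In trained muscle the summed level of 8 endothelial markers, all detected, was 82.8 to 94.1 FPKM under WT and 108 to 109 FPKM under strNrip1-/-, and 1 of the 8, Tie1, was called higher (log2 fold change 0.42, limma adjusted p = 0.0125). In sedentary muscle the endothelial sum was 81.9 to 90.3 FPKM under WT and 97.9 to 112 FPKM under strNrip1-/-. The fast-fiber sum in trained muscle was 128669 to 155309 FPKM (WT) and 112419 to 116254 FPKM (strNrip1-/-). Of its 10 markers 1, Actn3, was called lower (log2 fold change -0.75, limma adjusted p = 0.000817). The sum of 6 fibroblast markers in trained muscle was 541 to 601 FPKM (WT) and 451 to 530 FPKM (strNrip1-/-). The sums of the other 7 marker lists in the table overlapped between the trained groups. The part of these cells in the Hnrnpa0 difference was not tested, and in bulk muscle fewer cells of a type and less RNA per cell cannot be told apart.

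A further 8 members had an unadjusted p under 0.05 in trained muscle and did not pass the test. With Hnrnpa0 they were 9 of 30 (30.0%), against 21.1% of all genes, and were 4 hnRNP and 5 SR genes. With G + C and length trends taken out there were 12 of 30, and the share of all genes was not counted in that setting. The interval lay inside 1.2-fold for 12 genes and inside 1.5-fold for 29. The median absolute log2 fold change was 0.10 for the 30 genes and 0.16 for all genes, and the family medians were -0.01 (hnRNP) and 0.10 (SR), with 0.01 for all genes.

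Hnrnpa3, an hnRNP close to Hnrnpa2b1, read 54.2, 59.0 and 59.4 FPKM under WT trained and 53.9, 45.0 and 47.5 FPKM under strNrip1-/- trained. The groups did not overlap, the log2 fold change was -0.24 (SE 0.07), and the limma adjusted p was 0.0904. Leaving out strNrip1-/- trained replicate 1, the highest library of its group, must enlarge the difference. The log2 fold change was then -0.31 and passed the test (limma adjusted p = 0.0367). None of the other 11 omissions of a library changed the call. Over all alternatives the log2 fold change was -0.31 to -0.17 and the limma adjusted p 0.0335 to 0.336.

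Hnrnph1 read 91.4, 87.4 and 91.3 FPKM under WT trained and 78.9, 80.1 and 61.1 FPKM under strNrip1-/- trained. Here too the groups did not overlap, and the difference of -0.30 on the log2 scale (SE 0.10), at a limma adjusted p of 0.0943, rested in part on 1 library. Without strNrip1-/- trained replicate 3 it was -0.18. Hnrnpl read 51.7, 64.8 and 51.4 FPKM under WT and 63.7, 77.8 and 67.9 FPKM under strNrip1-/-, so its groups overlapped. The log2 fold change was 0.32 (limma SE 0.11 and adjusted p = 0.126). Leaving out WT trained replicate 2, the highest of its group, must likewise enlarge the difference. The log2 fold change was then 0.43 and passed (limma adjusted p = 0.0468). None of the other 11 omissions changed the call. Over all alternatives the log2 fold change of Hnrnpl was 0.24 to 0.43 and the limma adjusted p 0.0380 to 0.360.

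Among SR genes Srsf1, a general splicing factor, read 21.6, 22.9 and 19.5 FPKM under WT trained and 24.9, 25.3 and 24.9 FPKM under strNrip1-/- trained (log2 fold change 0.23, limma adjusted p = 0.143). Srsf4 read 18.7, 18.2 and 17.7 FPKM and then 20.6, 20.8 and 20.0 FPKM (0.17, limma adjusted p = 0.171). Srsf2 read 54.4, 61.5 and 55.4 FPKM and then 66.5, 62.1 and 63.5 FPKM (0.17, limma adjusted p = 0.194). In these genes the libraries labelled strNrip1-/- all lay above those labelled WT. They were picked for a small p, as were Hnrnpa3 and Hnrnph1, so groups that do not overlap are no separate evidence. Srsf5, with the values given above, had a log2 fold change of 0.21 (limma adjusted p = 0.222), and of 0.14 without strNrip1-/- trained replicate 2. Srsf10 went the other way, with 13.3, 15.0 and 14.7 FPKM under WT and 13.2, 11.9 and 10.9 FPKM under strNrip1-/- (-0.25, limma adjusted p = 0.163).

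**Figure D3:**
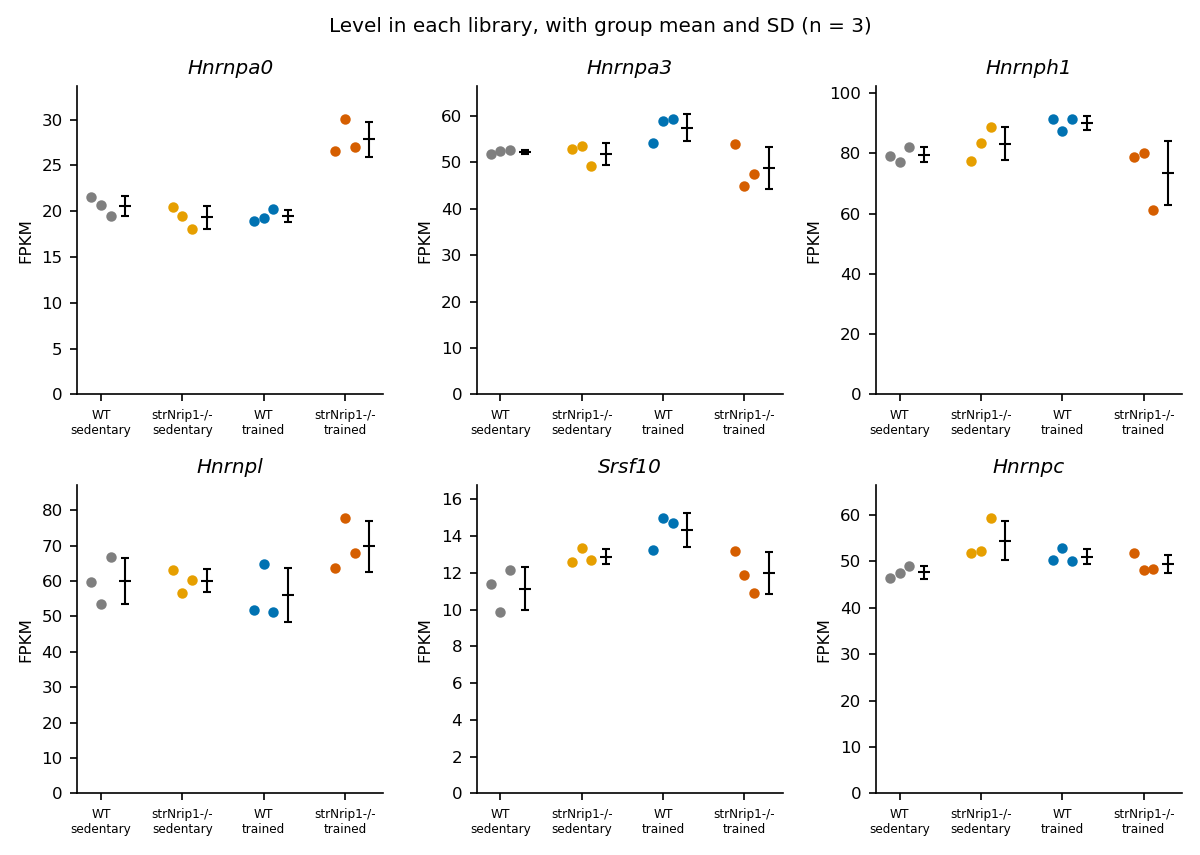
FPKM of 6 members in each library by labelled group (points), with the group mean and SD (n = 3), on axes from 0. Hnrnpa0 is set apart in strNrip1-/- trained muscle (26.5 to 30.1 FPKM, against 18.0 to 21.6 FPKM elsewhere), while the group means of Srsf10 and Hnrnpc change order between genotypes with training.

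Training within a genotype called no gene in either family. Of the 30 genes 0 passed in libraries labelled WT, and 0 in those labelled strNrip1-/-, where 0.0% of all genes passed in each. At an unadjusted p under 0.05 there was 1 of 30 in WT (3.33%, against 8.33% of all genes) and 2 of 30 in strNrip1-/- (6.67%, against 12.1%). The interval lay inside 1.2-fold for 21 genes in WT and 17 in strNrip1-/-.

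In libraries labelled WT, Srsf10 had the smallest p. It read 11.4, 9.86 and 12.2 FPKM in sedentary and 13.3, 15.0 and 14.7 FPKM in trained muscle, groups that did not overlap. The difference was 0.35 on the log2 scale (SE 0.10), at a limma adjusted p of 0.404. Srsf5 followed at -0.17 (limma adjusted p = 0.656), its sedentary libraries at 147 to 166 FPKM all above its trained libraries at 131 to 147 FPKM by a small margin. Hnrnph1 stood at 0.18 (limma adjusted p = 0.677), with 79.2, 77.2 and 82.1 FPKM in sedentary and 91.4, 87.4 and 91.3 FPKM in trained muscle. Hnrnpa0 differed by -0.07 (95% interval -0.24 to 0.09).

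In libraries labelled strNrip1-/-, Hnrnpa0 was again the first. Its log2 fold change between trained and sedentary muscle was 0.52 (SE 0.08, 95% interval 0.35 to 0.68), as large as the genotype difference with which it shares the trained libraries, but the adjusted p was 0.0737 (limma) and it was not called. It was called with genes of a mean FPKM of at least 5 only, with libraries scaled to the same sum, and with array weights (limma adjusted p of 0.0286 to 0.0475). The limma adjusted p was 0.161 with the same sum outside the mitochondrial genome and 0.139 with a replicate block. It was 0.200 with the 6 libraries alone and 0.339 without strNrip1-/- trained replicate 2. Over all genes the median log2 fold change here went from -0.09 at lowest G + C content to 0.11 at highest. With G + C and length trends taken out, Hnrnpa0 stood at 0.46 (limma adjusted p = 0.0988). Hnrnpul1, an hnRNP U-like protein with a role at broken DNA ends, read 24.1, 23.6 and 24.9 FPKM in sedentary and 24.9, 27.8 and 28.6 FPKM in trained muscle (0.16, limma adjusted p = 0.412). Srsf4 read 19.0, 18.5 and 18.0 FPKM and then 20.6, 20.8 and 20.0 FPKM (0.14, limma adjusted p = 0.418).

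**Figure D4:**
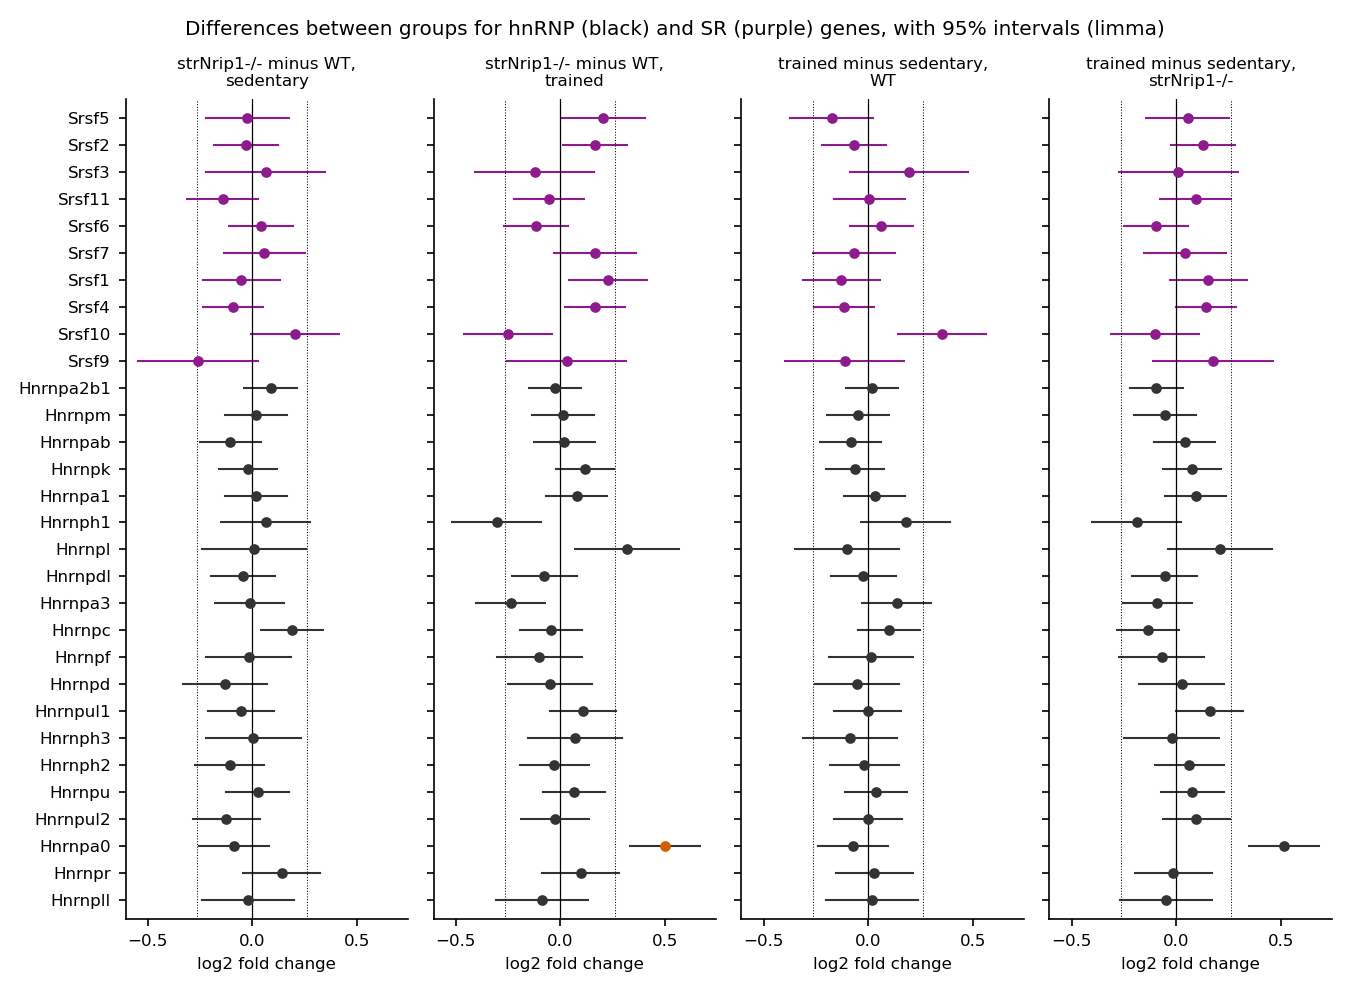
Log2 fold change with 95% interval (limma) of each SR (purple) and hnRNP (black) gene in the 4 simple comparisons, by label; dotted lines mark 1.2-fold either way and the orange point the member called. Most intervals straddle 0, and the interval of Hnrnpa0 lies at 0.33 to 0.67 in trained muscle and at 0.35 to 0.68 for training in strNrip1-/-.

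Averaged over both training states, no member was called for genotype, where 8.8% of all genes were. Hnrnpa0 had a limma adjusted p of 0.0306 but a log2 fold change of 0.21, under the 1.2-fold threshold. At an unadjusted p under 0.05 there were 2 of 30 (6.67%), Hnrnpa0 and Hnrnpa3, against 24.1% of all genes. Averaged over both genotypes, no member was called for training, where 0.118% of all genes were. At an unadjusted p under 0.05 there was 1 of 30 (3.33%), Hnrnpa0 with 0.22 (limma adjusted p = 0.138), against 11.5% of all genes.

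Whether the genotype difference itself depended on training was asked with the interaction. No member passed (0 of 30, against 0.0% of all genes), and 6 of 30 had an unadjusted p under 0.05 (20.0%), against 7.76% of all genes. The interaction of Hnrnpa0 was 0.59 on the log2 scale (SE 0.11, 95% interval 0.35 to 0.83), with an unadjusted p of 0.000186 and a limma adjusted p of 0.338. The others were Srsf10 at -0.45, Hnrnph1 at -0.37, Srsf1 at 0.28, Srsf4 at 0.26 and Hnrnpc at -0.24, with limma adjusted p of 0.561 to 0.627. Without strNrip1-/- trained replicate 3 the value of Hnrnph1 was -0.24. The interaction had the widest errors (median SE 0.11), and its interval lay inside 1.5-fold for 24 genes. Across the 30 genes its Pearson correlation with G + C content was 0.56, and 0.44 without Hnrnpa0. Over all genes the median interaction went from -0.14 in the genes lowest in G + C to 0.16 in those highest. With G + C and length trends taken out, the correlation was 0.41 and 8 of 30 genes had an unadjusted limma p under 0.05. The share of all genes was not counted in that setting.

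Around these families, 128 other genes of splicing and its control were examined in 7 lists, and 127 passed the filter. The lists held 12 SR protein kinases and phosphatase regulators, 23 other SR-related proteins, 33 splicing regulators active in muscle, 38 proteins of the spliceosomal snRNPs, 15 genes of nonsense-mediated decay and the exon junction, 5 genes of nuclear import and 2 cold-inducible RNA-binding proteins. Of the 127, 1 was called in sedentary muscle (higher), 3 in trained muscle (1 higher and 2 lower), 4 for genotype over both training states (1 higher and 3 lower) and 0 for training in either genotype. Those were 0.787%, 2.36% and 3.15% of the list genes for the 3 genotype comparisons, beside 3.51%, 5.98% and 8.8% of all genes. The median log2 fold change over the 127 was -0.01 in sedentary and 0.01 in trained muscle, beside medians within 0.01 of 0 over all genes. Over both training states, in which Srpk3, Mbnl1 and Snrpg were lower, 5 of the 10 fast-fiber markers were also called lower (Actn3, Acta1, Pvalb, Myh4 and Mylpf, log2 fold changes of -0.83 to -0.37) and 3 of the 8 endothelial markers higher, and their part in these results was not tested. No gene of the lists of other SR-related proteins, nonsense-mediated decay or nuclear import was called in any comparison.

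Srpk3, the muscle-specific kinase of SR proteins, was lower in the libraries labelled strNrip1-/-. It read 19.3, 23.8 and 18.1 FPKM in WT sedentary, 14.9, 16.1 and 15.7 FPKM in strNrip1-/- sedentary, 21.8, 21.8 and 22.9 FPKM in WT trained and 17.7, 13.5 and 17.2 FPKM in strNrip1-/- trained libraries. All strNrip1-/- libraries lay below all WT libraries. The log2 fold change was -0.41 (SE 0.08) over both training states (limma adjusted p = 0.00828), a call that held in every alternative. In trained muscle alone it was -0.45 (limma adjusted p = 0.0430), and that call stood without WT sedentary replicate 2 or 3, strNrip1-/- sedentary replicate 2 or strNrip1-/- trained replicate 1. It was lost without any of the other 8 libraries (limma adjusted p 0.0510 to 0.146). It was also lost with a replicate block (limma adjusted p = 0.0721), with no filter (0.0577), with both scalings to an FPKM sum (0.0976, and 0.0877 outside the mitochondrial genome) and with the 6 trained libraries alone (0.0781).

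Mbnl1, the muscleblind protein that drives the adult splicing pattern of muscle, was lower as well. It read 63.8, 59.7 and 63.4 FPKM in WT sedentary, 52.9, 51.3 and 60.4 FPKM in strNrip1-/- sedentary, 63.5, 58.5 and 70.1 FPKM in WT trained and 53.0, 47.8 and 49.4 FPKM in strNrip1-/- trained libraries. Its trained groups did not overlap. The log2 fold change was -0.35 (SE 0.08) in trained muscle (limma adjusted p = 0.0344) and -0.27 (SE 0.06) over both states (limma adjusted p = 0.0152). With G + C and length trends taken out these were -0.25 and -0.22 and were not called. Scaling to the same FPKM sum also ended both calls (limma adjusted p = 0.306 in trained muscle and 0.0750 over both states), as did scaling to the same sum outside the mitochondrial genome (0.249 and 0.234). Quantile normalization (0.0565) and the 6 trained libraries alone (0.0751) ended the trained call. The trained call was also lost without WT sedentary replicate 1 or 3, WT trained replicate 1 or 3, or strNrip1-/- trained replicate 2 or 3 (limma adjusted p 0.0523 to 0.127). The call over both states was lost, by falling under 1.2-fold, without WT sedentary replicate 1 or 3, strNrip1-/- sedentary replicate 1 or 2, WT trained replicate 3, or strNrip1-/- trained replicate 2 or 3 (log2 fold changes of -0.26 to -0.23).

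Cirbp, the cold-inducible RNA-binding protein, was higher in trained muscle labelled strNrip1-/-. It read 49.9, 47.9 and 44.5 FPKM under WT trained and 53.6, 67.5 and 67.2 FPKM under strNrip1-/- trained, and 50.5 to 61.1 FPKM in the sedentary libraries of both labels together. The trained groups did not overlap, and the difference was 0.40 on the log2 scale (SE 0.10), at a limma adjusted p of 0.0387. The call stood without any 1 strNrip1-/- sedentary library or strNrip1-/- trained replicate 1, and was lost without any of the other 8 libraries (limma adjusted p 0.0568 to 0.149). With G + C and length trends taken out the log2 fold change was 0.27, and it was not called. A replicate block (limma adjusted p = 0.0631), the same sum outside the mitochondrial genome (0.0504) and the 6 trained libraries alone (0.0918) ended the call as well. Rbm3, the other of the 2 cold-inducible genes, went the other way in trained muscle and was not called. Both had an unadjusted limma p under 0.05, and the median of their log2 fold changes was 0.01.

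Pcbp4, a poly(C)-binding protein, was the only list gene called in sedentary muscle. It read 33.7, 34.0 and 28.2 FPKM in WT sedentary, 40.5, 48.2 and 41.0 FPKM in strNrip1-/- sedentary, 36.9, 34.7 and 37.4 FPKM in WT trained and 42.8, 39.9 and 39.8 FPKM in strNrip1-/- trained libraries. All strNrip1-/- libraries lay above all WT libraries. The log2 fold change was 0.43 (SE 0.09) in sedentary muscle (limma adjusted p = 0.0257) and 0.30 (SE 0.06) over both states (limma adjusted p = 0.0123). The sedentary call was lost without WT sedentary replicate 1 or 3 or strNrip1-/- sedentary replicate 2 (limma adjusted p 0.0610 to 0.0931), and the call over both states without WT sedentary replicate 3 or strNrip1-/- sedentary replicate 2 (log2 fold change 0.26 each, under 1.2-fold). With G + C and length trends taken out, the value over both states was 0.22 and was not called, nor was it with array weights (0.26, under 1.2-fold) or the same FPKM sum (limma adjusted p = 0.0539). The sedentary call was lost with the same FPKM sum (limma adjusted p = 0.148) and with the 6 sedentary libraries alone (0.137).

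Snrpg, a protein of the Sm ring of the snRNPs, was lower over both states. It read 19.4, 22.3 and 18.8 FPKM in WT sedentary, 11.3, 18.3 and 8.79 FPKM in strNrip1-/- sedentary, 16.3, 13.3 and 14.3 FPKM in WT trained and 11.1, 9.81 and 13.1 FPKM in strNrip1-/- trained libraries. The log2 fold change was -0.53 (SE 0.15, limma adjusted p = 0.0443). The call stood when strNrip1-/- sedentary replicate 2 was left out and was lost without any 1 of the other 11 libraries (limma adjusted p 0.0521 to 0.102). It was also lost with a replicate block (limma adjusted p = 0.0631) and with no filter on low values (0.0643).

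**Figure D5:**
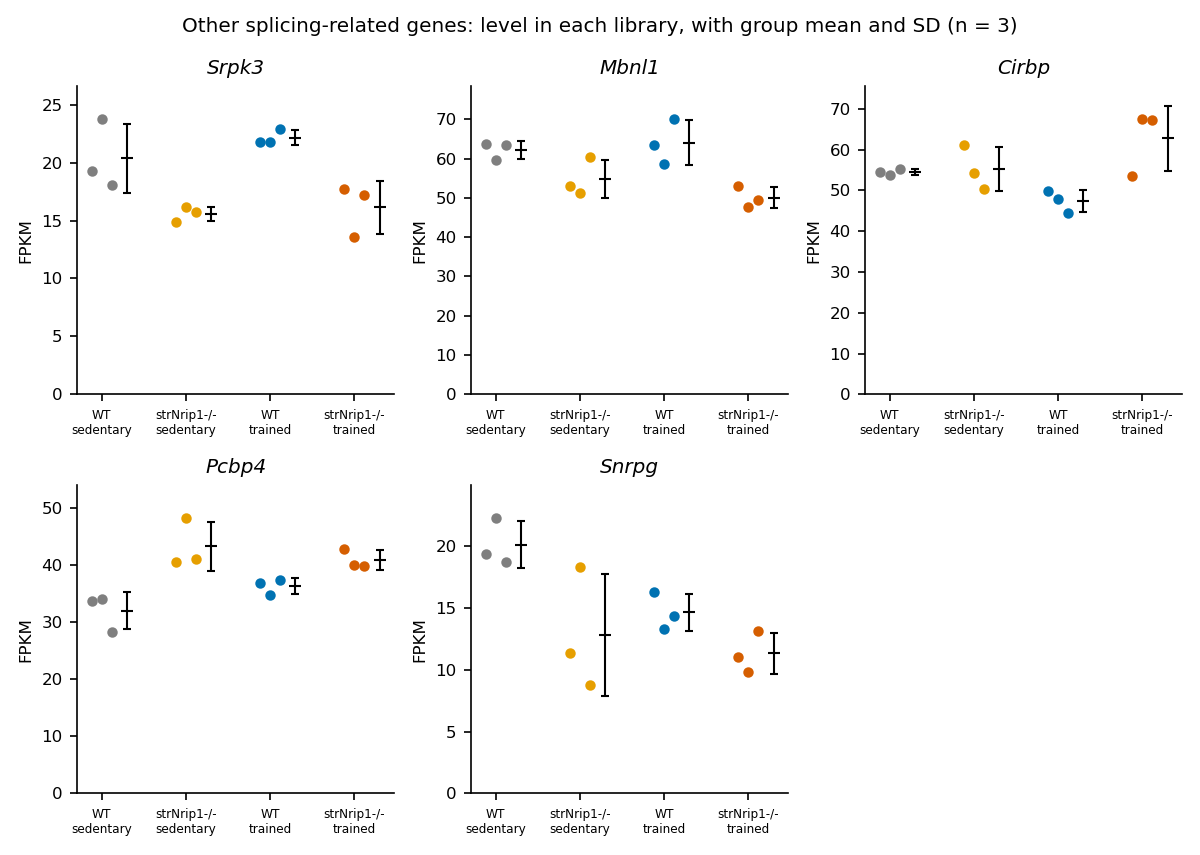
FPKM of the 5 called splicing-related genes outside the families in each library by labelled group (points), with the group mean and SD (n = 3), on axes from 0. Srpk3 lies at 13.5 to 17.7 FPKM in libraries labelled strNrip1-/- and at 18.1 to 23.8 FPKM in those labelled WT.

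These values sum the transcripts of a gene, so a shift between isoforms, including a poison exon spliced in or out, would not be seen. Exons of 14 of the 30 genes overlapped those of another annotated gene, among them Srsf1, Srsf2, Srsf4, Hnrnpa3 and Hnrnpl, and whether the quantification used strand is not given in the sources used here. Hnrnpa1 and Hnrnpa3 have near-identical processed pseudogene copies with which they can share reads, so their values are less certain.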

How the data were processed

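EDL RNA was sequenced at 3 libraries a group, and the labels gave each library its group. Per the labels, the processing used Salmon 1.10.2 and DESeq2 1.44.0 with mm10. The authors deposited 1 table of FPKM per gene for the 12 libraries, which also holds their log2 fold changes and adjusted p-values for 4 comparisons, not used here. Low FPKM values of 1619 single-transcript genes were spaced in whole fragments (99.1% to 99.8% within 0.15 of a whole number), which gave the depth. Genes with a mean FPKM of at least 0.5 (12744) were tested with limma 3.58.1 (R 4.3.3) on log2(FPKM + 0.5), with 4 group means, a variance trend and Benjamini-Hochberg adjustment within each of 7 contrasts. Fold changes are on this scale, which understates changes of low genes. A gene was called at an adjusted p under 0.05 and a change above 1.2-fold (interaction: adjusted p alone). The model was tested on simulated data. Symbols, exons and G + C content came from GENCODE M21, which matched 17745 of 17752 genes.

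Members and lists were chosen with earlier results of these data known. Each member was named with its mean. The share of all genes tested whose groups did not overlap was not counted in any comparison. Library values were given for members called, the 3 of smallest p in each simple contrast and the 3 most abundant in each family, and up to 4 called genes a pathway list; further members with an unadjusted p under 0.05 and values of Nrip1 were added. Of the marker lists, that of nuclear-retained RNAs had 0 of its 6 genes among the genes listed, so it was not analysed. Alternatives were other pseudocounts (0.1, 1), no filter, a mean of at least 5, 3 scalings, array weights, a replicate block, the 6 libraries of a contrast alone, and leaving out each library.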

Additional observations from a re-analysis of the deposited data

Results flagged for a closer look

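Srsf10 and Hnrnpc drew attention because every library moved one way in one setting and the opposite way in the other. For Srsf10 the libraries labelled strNrip1-/- lay above those labelled WT in sedentary muscle (12.6 to 13.3 FPKM against 9.86 to 12.2 FPKM) and below them in trained muscle (10.9 to 13.2 FPKM against 13.3 to 15.0 FPKM). The test of that difference, the limma interaction, was -0.45 on the log2 scale (SE 0.14, unadjusted p = 0.00638, adjusted p = 0.561), and did not pass. For Hnrnpc the trained libraries lay above the sedentary ones under the WT label (50.1 to 52.8 FPKM against 46.4 to 49.0 FPKM) and below them under the strNrip1-/- label (48.2 to 51.7 FPKM against 51.8 to 59.3 FPKM), with a limma interaction of -0.24 (SE 0.10, unadjusted p = 0.0305, adjusted p = 0.626) that did not pass either. In 1 setting of each gene the gap was very small. The nearest trained libraries of Srsf10 read 13.26 FPKM (WT) and 13.18 FPKM (strNrip1-/-). The nearest strNrip1-/- libraries of Hnrnpc read 51.80 FPKM (sedentary) and 51.73 FPKM (trained). The share of all genes with such a reversal was not counted. Groups of 3 were too small for a check of single libraries standing apart.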

How the results depend on the processing

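Of 158 recounts of the hnRNP and SR genes called, 150 left the count as it was. In trained muscle, where 1 was called for genotype, 2 were with quantile normalization (Hnrnpa3 added), 3 with array weights (Hnrnpl and Hnrnph1 added), and between 1 and 2 when 1 library was left out. For training in strNrip1-/-, where 0 were called, 1 was (Hnrnpa0) with a mean FPKM of at least 5, the same FPKM sum, or array weights. For genotype over both training states, where 0 were called, 1 was (Hnrnpa0) with the same sum outside the mitochondrial genome. The cause was not tested. Of 838 recomputed single-gene values, 0 changed sign, 69 lost a call and 9 gained one. They belong to 37 results picked from these same data, most of them for a small p, so changes of sign were unlikely. Leaving out a library of a group outside the comparison leaves the log2 fold change as it was. Scaling to the same FPKM sum moved the median log2 fold change of all genes to -0.14 in sedentary muscle, 0.16 for training in strNrip1-/- and 0.20 for the interaction, and the medians of the hnRNP and SR genes moved with it (-0.17 and -0.18, 0.18 and 0.25, 0.27 and 0.37).

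The replicate numbers did not pair the libraries: same-numbered libraries of different groups had correlations of deviations of -0.10 to 0.24 (5 of 18 above 0.1), and no library correlated best with its own number in every other group. With a replicate block the families kept 1 called gene in trained muscle (Hnrnpa0, limma adjusted p = 0.00792) and 0 elsewhere, and list genes called in trained muscle went from 3 to 1 (Srpk3 and Cirbp lost), and Snrpg was lost over both training states.

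Over all genes, calls ranged over the alternatives from 163 to 690 in sedentary muscle (447 as reported), 315 to 1366 in trained muscle (762), 0 to 30 for training in WT (0), 0 to 150 for training in strNrip1-/- (0) and 1 to 190 for training over both genotypes (15). List genes called ranged from 0 to 4 in sedentary muscle (1), 0 to 7 in trained muscle (3), 0 to 3 for training in strNrip1-/- (0) and 1 to 5 over both training states (4). With 3 libraries a group, the median SE of a member's simple log2 fold change was 0.08, against 0.14 over all genes tested.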

Other observations

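The pseudogene Hnrnpa1l2-ps, left out of the families by the rule, read 1.58, 1.41 and 1.70 FPKM in WT sedentary, 1.29, 1.08 and 0.491 FPKM in strNrip1-/- sedentary, 0.507, 0.693 and 0.841 FPKM in WT trained and 1.28, 0.619 and 0.950 FPKM in strNrip1-/- trained libraries. Its WT groups did not overlap (limma log2 fold change for training -0.81, adjusted p = 0.416). Hnrnpa1, whose sequence it copies, had group means of 80.7 to 87.3 FPKM. Srsf12 was listed at 0 in all 6 sedentary libraries and in 1 WT trained library, and reached at most 0.0790 FPKM, which is near the value of 3 fragments on a 2000-nt transcript.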
